A study of Homo sapiens with 9 samples.

Results

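The *BCL2* family apoptosis regulators examined here were 10 genes chosen by symbol, of 60708 genes listed in the files: the guardians *BCL2*, *BCL2L1*, *MCL1* and *BCL2A1*, the effectors *BAX* and *BAK1*, and the BH3-only genes *BCL2L11*, *BBC3*, *PMAIP1* and *BID*. All 10 were listed for all 9 libraries, and 9 of them had enough counts to be tested, *BCL2A1* being the exception. The study asked what loss of *SNAI1*, which encodes the repressor SNAIL of epithelial-to-mesenchymal transition, does to MDA-MB-231, an established human triple-negative breast cancer cell line. The 9 RNA-sequencing libraries came from untreated cells, 3 from MDA-MB-231-WT, the parental population, and 3 each from CS16 and CS19, which the labels give as single-cell clones with the genotype *SNAI1*-KO. According to the methods, the clones arose from CRISPR/Cas9 and repair plasmids with a puromycin step. By that account each clone also differs from WT in having been transfected, selected and grown from a single cell. Whether the clone libraries descend from the WT population was not tested here. Both clones together are called *SNAI1*-KO below (6 libraries).

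The BCL2 proteins decide at the mitochondrial outer membrane whether a stressed cell lives. BAX and BAK open pores in that membrane, cytochrome c leaves through them, and the caspases that dismantle the cell become active. The guardians BCL2, BCL-XL (from *BCL2L1*), MCL1 and BFL1 (from *BCL2A1*) hold the effectors and their activators in check, while the BH3-only proteins BIM (from *BCL2L11*), PUMA (from *BBC3*), NOXA (from *PMAIP1*) and BID report damage, lost growth signals or death receptor activity by binding the guardians or the effectors. Breast cancers of the triple-negative type are known to lean on MCL1 and BCL-XL for survival.

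Promoter sequence is shown for 4 members, *BCL2L1* and *PMAIP1* as members with lower counts in *SNAI1*-KO, *BBC3* as the member with higher counts, and *BAX* because its window alone among the members held CAGGTG, the letters of the E-box that SNAIL is known to bind. RefSeq start sites on GRCh38.p14 gave 14 windows of 300 bases (250 before the start and 50 after) for 9 of the 10 members. CAGGTG, sought on both strands, lay in 20.6% of all 35116 such windows, and in *BAX* it began 103 bases before the start. The CG dinucleotides, where human DNA is methylated, are in capitals, and only the stretch before the first annotated exon is printed, 5′ to 3′ on the strand of the gene.
*BCL2L1*, chr20:31723990-31724213, minus strand: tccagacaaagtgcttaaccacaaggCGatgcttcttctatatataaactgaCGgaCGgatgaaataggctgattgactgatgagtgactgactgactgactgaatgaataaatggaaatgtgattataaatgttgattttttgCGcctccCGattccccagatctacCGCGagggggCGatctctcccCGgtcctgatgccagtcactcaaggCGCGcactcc
*PMAIP1*, chr18:59899746-59899995, plus strand: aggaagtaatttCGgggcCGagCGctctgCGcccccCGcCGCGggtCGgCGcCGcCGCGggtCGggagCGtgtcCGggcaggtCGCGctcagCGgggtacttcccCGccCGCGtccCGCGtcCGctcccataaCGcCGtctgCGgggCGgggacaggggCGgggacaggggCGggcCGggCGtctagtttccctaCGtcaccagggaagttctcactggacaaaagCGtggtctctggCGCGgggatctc
*BBC3*, chr19:47232767-47232917, minus strand: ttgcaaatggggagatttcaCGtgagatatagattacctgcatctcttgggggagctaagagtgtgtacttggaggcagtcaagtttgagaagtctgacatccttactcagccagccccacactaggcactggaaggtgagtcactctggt
*BAX*, chr19:48954625-48954814, plus strand: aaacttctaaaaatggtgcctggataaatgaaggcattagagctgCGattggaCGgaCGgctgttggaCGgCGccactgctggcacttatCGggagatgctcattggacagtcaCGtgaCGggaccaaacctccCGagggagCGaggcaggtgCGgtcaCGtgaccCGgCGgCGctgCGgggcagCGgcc
Over their whole windows, *PMAIP1* held 42 CG dinucleotides, *BAX* 38, this start of *BCL2L1* 20 and *BBC3* 5, beside a median of 14 over all windows (quartiles 4 and 28). These letters are a description of the reference genome, and no binding or methylation was measured in these libraries.

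The files held counts of read pairs per gene, 19527195 to 28627777 per library, and 3 counts, taken here as the floor of detection, came to 0.105 to 0.154 CPM (counts scaled to a library of 1e+06). *SNAI1* itself, the targeted gene, had 16, 38 and 21 counts in WT, 26, 40 and 49 in CS16, and 57, 94 and 94 in CS19. It was thus not lower in the libraries labelled *SNAI1*-KO, and was higher in CS19 than in WT (log2 fold change 1.32 ± 0.42 (SE), adjusted p = 0.0310 by the quasi-likelihood test of edgeR, Benjamini-Hochberg adjusted over all genes). The paper, by contrast, reports less *SNAI1* mRNA by RT-qPCR at each exon and no detectable protein. From its aligned RNA-sequencing reads it also reports deletions in the *SNAI1* locus. Gene counts do not show whether a transcript is intact. CS16 and CS19 below therefore mean the libraries that carry these labels. Markers of the labelled cell type moved with the labels as well. All 10 markers of basal B mesenchymal breast cells were lower in *SNAI1*-KO, their summed level being 6997 to 7689 CPM in WT and 531 to 588 CPM in *SNAI1*-KO, with *CD44* at the floor there. Markers of mammary luminal cells (7 lower and 1 higher of 8 tested) summed to 1474 to 2147 CPM in WT and 56.6 to 98.9 CPM in *SNAI1*-KO. Haematopoietic markers (2 lower and 2 higher of 4 tested) summed to 7.30 to 8.27 CPM in WT and 3.38 to 4.02 CPM in *SNAI1*-KO, and markers of embryonic kidney and the nephric lineage (2 lower and 7 higher of 9 tested) to 74.6 to 111.7 CPM and 265 to 382 CPM. *CDKN2A*, *CDKN2B* and *MTAP* of 9p21 had 0 counts in every WT library, against mean levels of 55.5, 11.8 and 103.8 CPM in *SNAI1*-KO. The part of these differences in any result on the *BCL2* family was not tested.

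Of the WT libraries, WT-2 stood apart. The chi-square statistic of its counts over genes, divided by the degrees of freedom, was 188 against WT-1 and 230.2 against WT-3, while it was 14.6 between WT-1 and WT-3 and 4.78 to 18.1 between libraries of the same clone. Results on the members are therefore given with and without WT-2. The labels do not say whether replicates came from separate cultures, so the p-values measure the spread between these libraries, which may be technical. In *SNAI1*-KO against WT, the libraries of CS16 and CS19 were pooled in the same group. The p-values of that fit treat each library as a replicate, although libraries of the same clone share their origin. Such p-values do not measure the spread that further clones would show.

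Of the 9 members tested, 5 passed the test in *SNAI1*-KO against WT (an adjusted p below 0.05), 1 higher and 4 lower, beside 63.7% of all genes tested (31.1% higher, 32.6% lower). The share of the members was thus near that of all genes. *BCL2L1* fell steeply, *PMAIP1*, *BAK1* and *BCL2* fell by smaller amounts, *BBC3* rose, and *MCL1*, *BAX*, *BCL2L11* and *BID* did not pass. The median log2 fold change was -0.34 over the 9 members and -0.004 over all genes. The 6 *SNAI1*-KO libraries lay wholly outside the 3 WT libraries for 5 members, beside 58.3% of all genes. Only *BCL2L1* also met the cut-offs that the study used, an adjusted p below 0.05 together with a log2 fold change of 2 or more in size. They were met by 26.9% of all genes, 14.3% lower.

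Among the guardians, *BCL2L1* (chr20:31664452-31723989 on GRCh38, minus strand) encodes BCL-XL and, by another splice site, the shorter BCL-XS that opposes it, and gene counts do not separate them. Its level was 172, 364 and 203 CPM in WT, 12.0, 8.88 and 10.3 CPM in CS16, and 13.5, 16.8 and 10.8 CPM in CS19. Every clone library thus lay far under every WT library, and WT-2 held the highest level of all. The means were 246 ± 103 CPM (SD, n = 3) in WT and 12.1 CPM over 6 *SNAI1*-KO libraries, a 20.4-fold lower level (log2 fold change -4.35 ± 0.25 (SE), adjusted p = 4.68e-08, edgeR), with 6.62% of all genes at or below this fold change. In bulk libraries, less RNA per cell and fewer cells with the RNA cannot be told apart, here and for every gene below. In CS16 it fell 23.2-fold and in CS19 17.5-fold (log2 fold changes -4.54 ± 0.35 and -4.13 ± 0.36). Without WT-2 the log2 fold change in *SNAI1*-KO was -3.97, and over all 17 alternatives, other normalizations and each left-out library included, it stayed between -4.56 and -3.97.

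**Figure D1:**
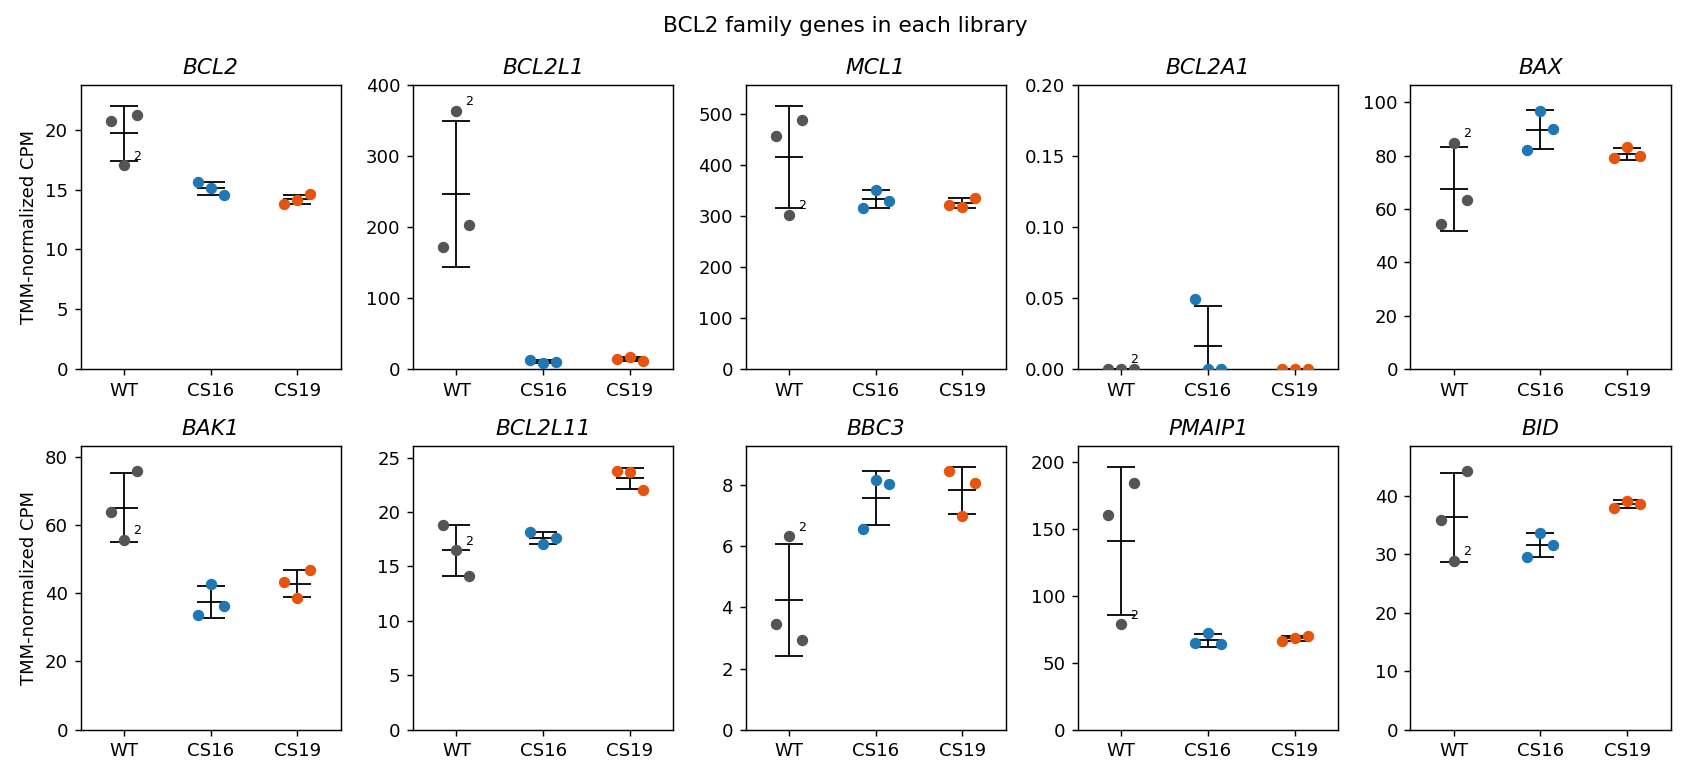
TMM-normalized CPM of the 10 genes in each library (points; the small 2 marks WT-2), with the mean and SD of each group of 3 libraries, on linear axes that start at 0. *BCL2L1* lies between 172 and 364 CPM in WT and at 16.8 CPM or less in both clones, WT-2 lies apart from the other WT libraries for *BCL2L1*, *MCL1*, *BAX*, *BBC3* and *PMAIP1*, and *BCL2A1* is at 0 in 8 of 9 libraries.

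Of the 4197 exon bases of *BCL2L1*, 1735 (41.3%) are shared with *ABALON*, a long noncoding RNA on the opposite strand. Strand was not used in the counting, and pairs that touch exons of more than 1 gene could go uncounted, so the reads of both genes over that stretch cannot be told apart. *ABALON* itself had 79 or more counts in each WT library and 0 to 6 in the clones, and *BCL2L1-AS1*, which shares no exon base with *BCL2L1* but lies within it, had 58 to 262 and 0 to 7. *BCL2L1* itself had 3497 to 6382 counts in WT and 186 to 388 in the clones, and the part of the overlap in its difference was not tested. Of the other members, *BCL2L11* shares 13.8% of its exon bases with other genes and the rest 5.27% or less.

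*MCL1* (chr1:150560895-150579738, minus strand) encodes a guardian that is turned over quickly. It had 456, 302 and 488 CPM in WT, 316, 351 and 329 CPM in CS16, and 321, 317 and 335 CPM in CS19. The clone libraries lay close together, between WT-2 and the other WT libraries, so the groups overlapped. In *SNAI1*-KO against WT the log2 fold change was -0.34 ± 0.16 (SE) with an adjusted p of 0.0766 by edgeR. Without WT-2 it was -0.53 ± 0.088, and *MCL1* then passed (adjusted p = 0.000254 by the same edgeR test), as it did in each clone, at -0.51 in CS16 and -0.52 in CS19. WT-2 alone thus decided this call.

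*BCL2* (chr18:63123346-63320128, minus strand), the founding guardian of the family, was at a low level throughout. It had 20.8, 17.1 and 21.3 CPM in WT, 15.6, 15.1 and 14.5 CPM in CS16, and 13.8, 14.1 and 14.6 CPM in CS19. WT did not overlap with either clone. The 1.35-fold lower mean in *SNAI1*-KO passed the test (log2 fold change -0.43 ± 0.14 (SE), adjusted p = 0.0181 by edgeR). The call was lost without WT-1 (adjusted p = 0.0590), without WT-3 (0.0827) and when every gene with a count was tested (0.208), all by the same edgeR test. It was not made in CS16 (-0.35, adjusted p = 0.137) or CS19 (-0.44, 0.0798), and without WT-2 it was made in both (edgeR adjusted p = 0.00191 and 0.000353), with a log2 fold change of -0.53 ± 0.10 in *SNAI1*-KO.

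*BCL2A1* (chr15:79960892-79971196, minus strand), a target of NF-κB best known from blood cells, had 1 count in CS16-1 and 0 in the other 8 libraries. All 9 libraries were under the floor of 3 counts, so neither its presence nor a difference was detectable at this depth.

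Of the effectors, *BAK1* (chr6:33572547-33580293, minus strand), whose protein sits in the outer membrane, fell and *BAX* did not pass. *BAK1* had 63.8, 55.6 and 75.6 CPM in WT, 33.5, 42.5 and 36.2 CPM in CS16, and 43.2, 38.5 and 46.7 CPM in CS19. For *BAK1*, every clone library lay under every WT library. Its mean was 1.62-fold lower in *SNAI1*-KO (log2 fold change -0.70 ± 0.15 (SE), adjusted p = 0.00168, edgeR), and the call was kept under all 17 alternatives, with -0.80 ± 0.13 without WT-2. It passed in CS16 (-0.77 ± 0.19, edgeR adjusted p = 0.0108) and in CS19 (-0.56 ± 0.19, 0.0362). Without WT-2 these were -0.90 and -0.68 (edgeR adjusted p = 5.96e-06 and 2.19e-05). The call in CS19 was lost without any library of that comparison other than WT-2, with adjusted p from 0.0719 to 0.167, and that in CS16 was lost without CS16-1 (adjusted p = 0.0793) or CS16-3 (0.0727), by edgeR in each case.

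*BAX* (chr19:48954815-48961798, plus strand), whose protein waits in the cytosol and moves to mitochondria, had 54.4, 84.8 and 63.1 CPM in WT, 82.2, 96.8 and 89.9 CPM in CS16, and 78.9, 83.0 and 79.9 CPM in CS19. WT-1 and WT-3 lay under all clone libraries, while WT-2 lay among them. In *SNAI1*-KO the log2 fold change was 0.34 ± 0.16 (SE), with an adjusted p of 0.0814 by edgeR, which came to 0.0499 with upper-quartile normalization. Without WT-2 it was 0.53 ± 0.11 (adjusted p = 0.00121, edgeR), at 0.61 in CS16 and 0.48 in CS19, and *BAX* then passed in all 3 comparisons with WT.

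**Figure D2:**
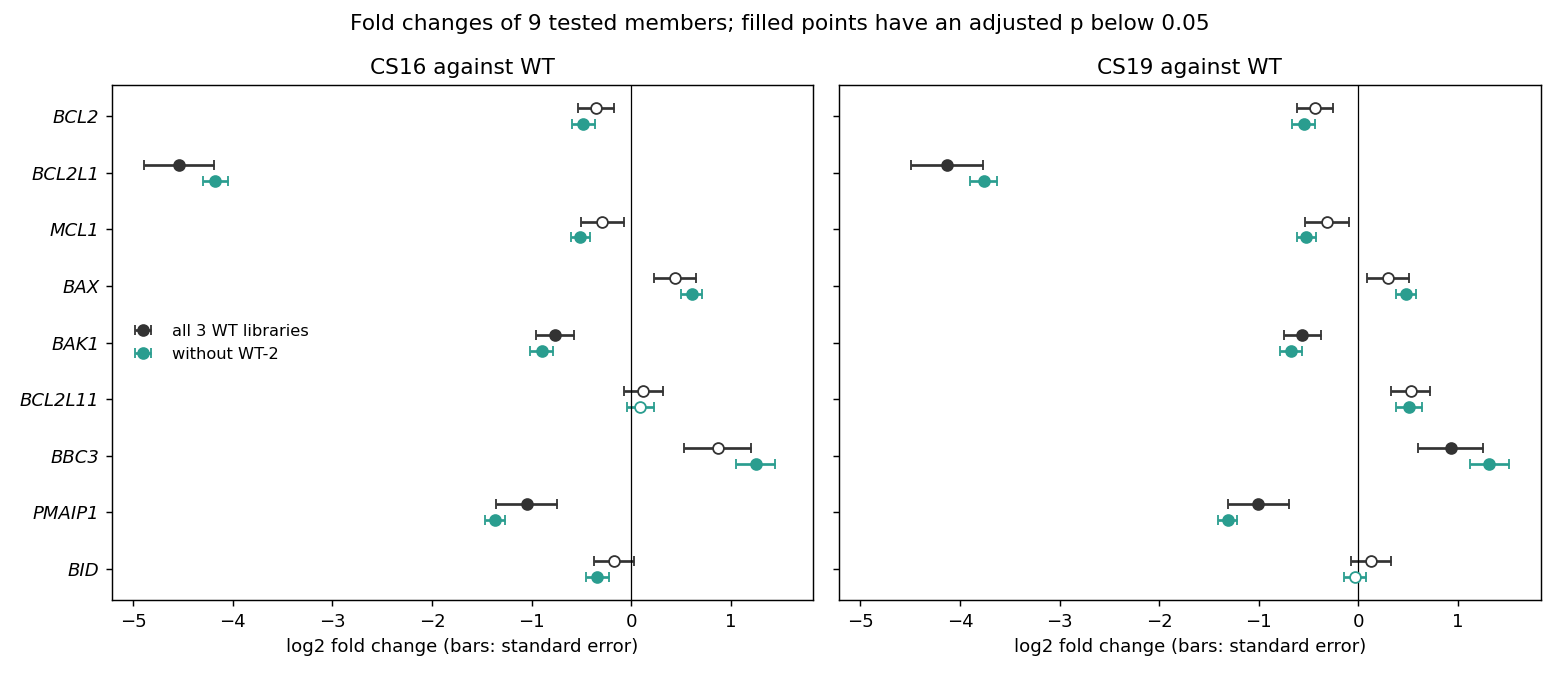
Log2 fold changes of the 9 tested members in CS16 (left) and CS19 (right) against WT, with standard errors, from fits with all 3 WT libraries (dark) and without WT-2 (green). Filled points passed edgeR's test at an adjusted p below 0.05, of which there are 3 in CS16 and 4 in CS19 with all WT libraries and 8 in each without WT-2, and *BCL2L1* stands alone near -4.

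Among the BH3-only genes, *PMAIP1* fell and *BBC3* rose. *PMAIP1* (chr18:59899996-59904305, plus strand) encodes NOXA, which binds MCL1. Its level was 160, 78.9 and 184 CPM in WT, 64.4, 72.3 and 63.7 CPM in CS16, and 66.4, 68.6 and 70.2 CPM in CS19. No clone library reached a WT library, although WT-2 came near them. The mean was 2.09-fold lower in *SNAI1*-KO (log2 fold change -1.06 ± 0.21 (SE), adjusted p = 0.000920 by edgeR), a call kept under all 17 alternatives, with -1.36 ± 0.085 without WT-2. Against single clones it passed too (-1.05 ± 0.31, adjusted p = 0.0216 in CS16, and -1.004 ± 0.30, 0.0258 in CS19, by edgeR). Without WT-2 these were -1.37 and -1.31, but without any other single library neither call was made, with adjusted p of 0.0694 to 0.0892 in CS16 and 0.0745 to 0.0955 in CS19 by edgeR.

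*BBC3* (chr19:47220822-47232766, minus strand) encodes PUMA, which can bind every guardian. Its counts were low, under 250 in every library. It had 3.45, 6.33 and 2.93 CPM in WT, 6.57, 8.16 and 8.04 CPM in CS16, and 8.45, 6.98 and 8.08 CPM in CS19. All 6 clone libraries lay above WT-2, the highest WT library, by a narrow margin. The mean was 1.82-fold higher in *SNAI1*-KO (log2 fold change 0.87 ± 0.25 (SE), adjusted p = 0.0104, edgeR), with adjusted p of at most 0.0472 over the 17 alternatives and 1.27 ± 0.18 on the log2 scale without WT-2. *BBC3* passed in CS19 (0.92 ± 0.33, adjusted p = 0.0467) and not in CS16 (0.87 ± 0.33, 0.0595, edgeR), and a difference between the clones was not found (0.05 ± 0.13, adjusted p = 0.821). Without WT-2 it passed in both, at 1.25 and 1.32, and the call in CS19 was lost without any other single library (edgeR adjusted p of 0.0790 to 0.134).

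*BCL2L11* (chr2:111119378-111168445, plus strand) encodes BIM, an activator of BAX and BAK known to respond to lost growth factor signals. It had 18.8, 16.5 and 14.1 CPM in WT, 18.1, 17.1 and 17.6 CPM in CS16, and 23.7, 23.6 and 22.0 CPM in CS19. CS16 lay within the range of WT, and CS19 lay above all other libraries. *SNAI1*-KO against WT did not pass (log2 fold change 0.30 ± 0.18 (SE), adjusted p = 0.150, edgeR), nor did CS16 (0.12 ± 0.20, 0.619) or CS19 (0.52 ± 0.19, 0.0542). Without WT-2 CS19 passed (0.50 ± 0.13, adjusted p = 0.00219 by edgeR) and CS16 did not (0.09 ± 0.14, 0.560). Of its 6656 exon bases, 919 (13.8%) are shared with *MIR4435-2HG* on the opposite strand or *ACOXL* on the same strand, and *MIR4435-2HG* had 2660 to 3495 counts in WT and 198 to 397 in the clones, where *BCL2L11* had 275 to 382 and 358 to 672. The part of that overlap was not tested.

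*BID* (chr22:17734138-17774770, minus strand) encodes the protein that caspase 8 cuts to pass a death receptor signal to mitochondria. It had 35.9, 28.9 and 44.2 CPM in WT, 29.6, 33.6 and 31.7 CPM in CS16, and 37.9, 39.2 and 38.7 CPM in CS19, all clone libraries lying within the range of WT. None of the 3 comparisons with WT passed, the log2 fold changes being -0.05 ± 0.17 in *SNAI1*-KO, -0.17 ± 0.20 in CS16 and 0.13 ± 0.20 in CS19 (SE), and the sign turned in all 3 under another normalization or filter or without a single library. Without WT-2, CS16 alone passed (-0.34 ± 0.12, adjusted p = 0.0156 by edgeR).

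The clones were then compared with each other, a comparison that does not use WT and so leaves out WT-2. In CS19 against CS16, 2 of 9 members passed, both higher, beside 27.4% of all genes tested (12.7% higher, 14.7% lower), and the 3 libraries of each clone did not overlap for 2 members, beside 40.5% of all genes. *BCL2L11* was 1.32-fold higher in CS19 (log2 fold change 0.40 ± 0.084 (SE), adjusted p = 0.00327, edgeR) and *BID* 1.22-fold higher (0.29 ± 0.076, adjusted p = 0.0113, edgeR). The call on *BCL2L11* was kept without each library, and that on *BID* was lost without CS16-1 (adjusted p = 0.0668) or CS19-3 (0.0525, edgeR). *BCL2L1* had a log2 fold change of 0.40 as well but a wider error (± 0.16, adjusted p = 0.0755 by edgeR), with CS19-3 lying among the CS16 libraries, and it passed without CS19-3 (0.54, adjusted p = 0.0126, edgeR) and where every gene with a count was tested (adjusted p = 0.00951, edgeR). *BAK1* did not pass with all libraries and passed without CS16-2 (0.30, adjusted p = 0.0237, edgeR). For the other 6 members the log2 fold changes lay between -0.15 for *BAX* and 0.20 for *BAK1*, and none of the members met the cut-offs of the study, which 1.13% of all genes met (0.496% higher, 0.633% lower).

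In each clone's own fit against WT, 3 members passed in CS16 (0 higher, 3 lower) and 4 in CS19 (1 higher, 3 lower). Of all genes, 55.6% passed in CS16 (27% higher, 28.6% lower) and 52.9% in CS19 (26.3% higher, 26.6% lower). The cut-offs of the study, which *BCL2L1* alone among the members met in both fits, were met by 27.1% of all genes in CS16 (11.8% higher, 15.3% lower) and by 26.4% in CS19 (12% higher, 14.4% lower). These fits share the 3 WT libraries. The libraries did not overlap for 5 members in CS16 and for 6 in CS19, beside 67.4% and 65.3% of all genes. Without WT-2, 8 members passed in CS16 (2 higher, 6 lower) and 8 in CS19 (3 higher, 5 lower), beside 72.7% and 71.2% of all genes, and 7 in *SNAI1*-KO (2 higher, 5 lower), beside 67.2%. Without CS16-1 or CS16-3 only *BCL2L1* passed in CS16, and it alone passed in CS19 without any library other than WT-2.

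To compare the genes with each other, levels were put per exon length, as TPM, which sum to 1e+06 in each library. The length used was that of all exons, while pairs over the 41.3% of *BCL2L1* shared with *ABALON* could go uncounted. Its TPM are therefore also given below per length of the 2462 unshared bases. Those values take every such pair as uncounted, which was not tested, and were not rescaled to sum to 1e+06. In WT *MCL1* (212 ± 43.4 TPM, SD, n = 3), *PMAIP1* (204 ± 69.5 TPM) and *BCL2L1* (191 ± 93.2 TPM) led and overlapped in their libraries. *BAK1* (93.6 ± 6.64 TPM) and *BAX* (84.3 ± 24.9 TPM), which overlapped each other, came next, and below them *BID* (26.1 ± 3.08 TPM), *BCL2L11* (8.06 ± 2.02 TPM), *BCL2* (5.00 ± 0.61 TPM) and *BBC3* (4.38 ± 2.23 TPM), of which *BCL2* and *BBC3* overlapped. *BCL2A1* was last at 0 TPM. With the lengths of all members limited to unshared bases, *BCL2L1* came to 326 ± 159 TPM and first in order, still overlapping *MCL1* (224 ± 45.8 TPM) and *PMAIP1*, and the other members kept their order.

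In the clones *MCL1* led alone, at 166 ± 12.7 TPM in CS16 and 158 ± 10.9 TPM in CS19. *BAX* (107 ± 5.11 and 94.8 ± 11.03 TPM) and *PMAIP1* (94.9 ± 7.81 and 95.0 ± 8.27 TPM) came next and overlapped each other in both clones. Below them *BAK1* had 52.3 ± 1.26 and 58.4 ± 1.90 TPM and *BID* 22.2 ± 1.47 and 26.5 ± 2.76 TPM. Per length of all exons, *BCL2L1* stood between *BCL2L11* (8.28 and 10.6 TPM) and *BBC3* (7.37 and 7.45 TPM) with 7.83 ± 2.15 and 10.1 ± 3.11 TPM and overlapped both. *BCL2*, at 3.74 ± 0.57 and 3.41 ± 0.28 TPM, was the lowest detected member in both clones. The order was the same by FPKM. Per unshared length *BCL2L1* had 13.3 ± 3.67 TPM in CS16 and 17.2 ± 5.30 TPM in CS19, which put it above *BCL2L11* (9.61 and 12.3 TPM, overlapping) and above *BBC3* without overlap, and still under *BID*.

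The 10 members together made up 829 ± 43.5 TPM (SD, n = 3) in WT, 470 ± 31.4 TPM in CS16 and 464 ± 38.1 TPM in CS19. The guardians summed to 354 to 471 TPM in WT and 156 to 194 TPM in the clones, of which *BCL2L1* gave 191 TPM on average in WT and 8.95 TPM in *SNAI1*-KO. The effectors summed to 161 to 200 TPM in WT and 141 to 166 TPM in the clones, and these ranges overlap. The ratio of guardian to effector TPM was 2.33, 2.36 and 2.19 in WT, 1.17, 1.06 and 1.104 in CS16, and 1.12, 1.13 and 1.11 in CS19. The clone libraries thus lay under all WT libraries in this ratio, WT-2 included. For WT-2 this rested on *BCL2L1*, which gave 63.5% of its guardian TPM. *MCL1* had 254, 167 and 216 TPM in WT and 146 to 179 TPM in the clones, so WT-2 lay among them. The effector sum of WT-2, 200 TPM, was above those of all clone libraries. The ratio therefore largely repeats the fall of *BCL2L1* and is not a separate result on the family. Per unshared length the ratio was 2.78 to 3.40 in WT and 1.12 to 1.26 in the clones. These sums weigh transcripts, and no protein was measured here. They cover the listed members only. Outside them lie the guardian *BCL2L2*, at a mean of 39.3 CPM in WT and 19.2 CPM in *SNAI1*-KO, and *BOK*, an effector relative, at 43.3 and 0.69 CPM.

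Within each role, over the listed members only, the make-up differed between WT and the clones. *MCL1* gave 63.2%, 35.5% and 61.1% of the guardian TPM in WT-1, WT-2 and WT-3 and 90.8% to 94.5% in the clones, and *BCL2L1* gave 35.4% to 63.5% in WT and 3.54% to 7.16% in the clones. The ratio of *MCL1* to *BCL2L1* was 1.78, 0.559 and 1.63 in WT, 17.8, 26.7 and 21.4 in CS16, and 16.0, 12.7 and 20.9 in CS19. Per unshared length this ratio was 1.104, 0.346 and 1.006 in WT and 7.86 to 16.5 in the clones, and *BCL2L1* gave 47.0% to 73.8% of the guardian TPM in WT and 5.60% to 11.1% in the clones, so that the size of these ratios rests on the length used. *BAX* gave 41.7% to 56.6% of the effector TPM in WT, 66.1% to 68.0% in CS16 and 59.4% to 64.8% in CS19. *PMAIP1* gave most of the BH3-only TPM in every library, 76.6% to 86.6% in WT and 67.3% to 72.2% in the clones, and the ratio of *PMAIP1* to *BBC3* was 67.7, 18.2 and 91.7 in WT and 11.5 to 14.3 in the clones.

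Other genes of the family were read next, in *SNAI1*-KO against WT, on lists chosen with earlier results of these data known. Of all genes tested, 63.7% passed in this comparison (31.1% higher, 32.6% lower), and 67.2% without WT-2. The counts for this list and those below are to be read beside these shares. Of 13 further *BCL2* family genes, 12 were tested, 2 higher and 7 lower, with a median log2 fold change of -0.86. *HRK*, a BH3-only gene best known from neurons, had 0, 1 and 0 counts in WT, 257, 300 and 325 in CS16 and 526, 553 and 766 in CS19, or 18.8 ± 6.09 CPM in *SNAI1*-KO (SD, n = 6). *BOK*, an effector relative of BAX and BAK, fell from 31.2 to 63.1 CPM in WT to 0.44 to 1.15 CPM in *SNAI1*-KO. Its log2 fold change was -5.94 ± 0.31 (SE), with an adjusted p of 1.96e-08 by edgeR. The guardian *BCL2L2* (BCL-W) had a log2 fold change of -1.03, the mitophagy receptors *BNIP3* and *BNIP3L* of -1.92 and -1.22, the BH3-only genes *BAD* and *BMF* of -1.22 and -0.61, and *BCL2L15* of -1.06, all lower, while *BCL2L13* was higher at 0.77. *BCL2L14* (-0.68), *BIK* (-0.30) and *BCL2L12* (0.07) did not pass, and *BCL2L10* had 0 counts in all 9 libraries. Without WT-2, 8 of these genes passed, 3 higher and 5 lower.

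Downstream of the mitochondrial pore, the list of apoptosome genes, caspases and mitochondrial factors had 5 higher and 3 lower of 16 tested, with a median log2 fold change of 0.08. Thus 8 of 16 passed, beside 63.7% of all genes. *AIFM1* (1.92 ± 0.15), encoding apoptosis-inducing factor, the nuclease gene *DFFB* (1.77 ± 0.16) and the protease gene *HTRA2* (0.72 ± 0.14) were higher. The initiator caspase gene *CASP8* (-1.55 ± 0.14) and its brake *CFLAR* (-2.18 ± 0.18) were lower (log2 fold changes ± SE). The initiator *CASP9*, which the apoptosome switches on, did not pass (-0.07, edgeR adjusted p = 0.747). Of 6 inhibitor of apoptosis genes tested, none was higher and 3 were lower, with a median of -0.70: *BIRC3*, which fell from 52.1 to 127 CPM in WT to 0.19 to 1.17 CPM, *BIRC2* (-1.37) and *NAIP* (-1.35).

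Upstream of *BID*, the list of death receptors, ligands and adaptors had 9 lower and 1 higher of 11 tested, beside 63.7% of all genes that passed. Its median log2 fold change was -1.61. *TNFSF10*, the ligand TRAIL, had 2203, 1068 and 2125 counts in WT and 1 or 2 in each clone library. *TNFRSF10A*, only 1 of its receptor genes, had 744 to 1015 in WT and 1 count in all the clone libraries together. The levels of *TNFSF10* and *TNFRSF10A* in the clones were thus under the floor. *TNFRSF21* was 12.3-fold lower. *FAS* was the gene that rose, 2.69-fold, from 4.34 to 8.73 CPM in WT to 15.9 to 20.2 CPM.

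Among 16 genes for transcription factors known to act on the members, 3 were higher and 9 lower, beside 63.7% of all genes that passed. The median log2 fold change was -0.89. *FOXO1* (2.32) and *FOXO3* (1.20), whose proteins are known to switch on *BCL2L11* and *BBC3*, and *ATF4* (1.87), which acts on *PMAIP1* under stress, were higher. *STAT3* (-1.59), known to act on *BCL2L1* and *MCL1*, and *BCL6* (-2.61) were lower. *STAT5A*, known to act on *BCL2L1*, had 329, 466 and 340 counts in WT and 0 to 4 in the clones. The part of any of these factors in the levels of the members was not tested.

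Of 18 genes for partners and regulators of BCL2 protein turnover, 3 were higher and 7 lower, with a median of -0.13. Thus 10 of 18 passed, beside 63.7% of all genes. *ITPR3*, a calcium channel of the endoplasmic reticulum on which BCL2 proteins act, fell from 472 to 1343 CPM in WT to 3.39 to 5.59 CPM. *PPP3CA* (-1.53), a subunit of the phosphatase calcineurin, and the kinase gene *PIM1* (-1.56) were lower, while *PIM3* (1.05), *PIM2* (0.45) and the channel gene *VDAC3* (1.01) were higher. Without WT-2 the counts of higher and lower genes were 7 and 4 for the apoptosome list, 0 and 3 for the inhibitors of apoptosis, 1 and 8 for the death receptor list, 3 and 9 for the transcription factors, and 4 and 10 for the partners. Of all genes, 67.2% then passed.

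**Figure D3:**
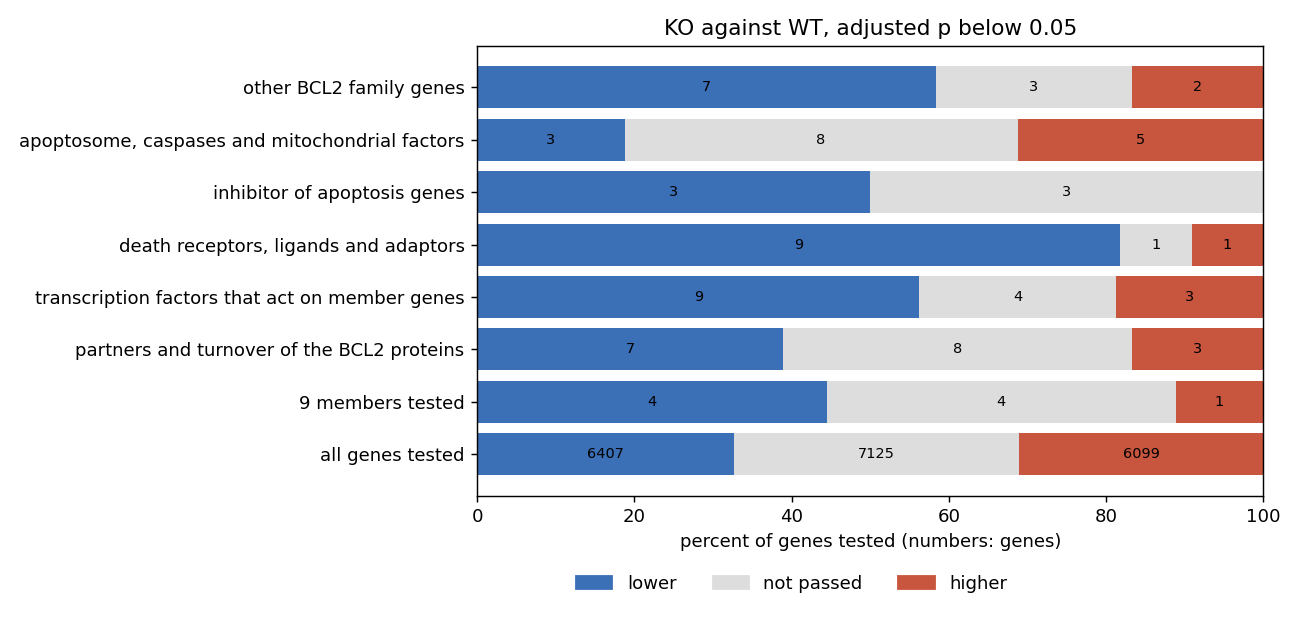
Share of tested genes of 6 lists, of the members and of all genes that were lower (blue), higher (red) or did not pass (grey) in *SNAI1*-KO against WT, in percent of the genes tested, with the number of genes written in each bar. The bottom bar gives all 19631 genes tested, of which 6407 were lower and 6099 higher, and the 9 tested members had 4 lower, 1 higher and 4 that did not pass.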

How the data were processed

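After trimming (Trimmomatic 0.36) and alignment to GRCh38 (STAR 2.7.2b), the authors counted pairs per gene of gencode release 38 with featureCounts 2.0.0. A pair was counted if its mates were both aligned, not chimeric and of mapping quality 30 or above, whatever its strand. The deposited values are whole counts per gene, not normalized, and 0 columns of other samples were present. Amplified copies could not be removed, so the floor of 3 counts covers counting error only.

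Genes were matched by identifier, and 99.67% had a symbol. Genes passing edgeR's filterByExpr (19631 for *SNAI1*-KO against WT) were normalized by TMM and tested by the quasi-likelihood test of edgeR, Benjamini-Hochberg adjusted over all genes tested (R 4.3.3, edgeR 4.0.16, limma 3.58.1). Each clone had its own fit against WT, and the standard error is the log2 fold change over the square root of F. CPM are TMM-normalized, and TPM use the exon lengths in the files. The steps were tested on simulated data. Promoters came from RefSeq, overlaps and coordinates from the files and gencode.

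Alternatives were DESeq2 1.42.0, RLE and upper-quartile factors, testing every gene with a count, a filter of 10 counts in 3 or more libraries, omitting the 100 highest genes, blocking on the replicate number, fitting the 3 groups together, FPKM for the order of levels, and leaving out each library. The same alternatives for the pathway lists, and TPM per exon length not shared with other genes, were chosen after seeing the data. The members and all lists were chosen with earlier results of these data known. Named from each list were up to 3 genes in each direction with the smallest adjusted p, all other *BCL2* family genes, *CASP9* and genes overlapping a member. Some further genes and 1 list are not reported here.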

Additional observations from a re-analysis of the deposited data

Results flagged for a closer look

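*BCL2L11* and *BID* differed between the clones, by a direct test of CS19 against CS16 (log2 fold changes 0.40 and 0.29), although neither passed against WT in either clone by edgeR with all 3 WT libraries. Both were higher in 3 of 3 CS19 libraries than in every CS16 library. With 1 estimate of the spread shared by all 3 groups, neither call was made (edgeR adjusted p = 0.259 for *BCL2L11* and 0.540 for *BID*).

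*BCL2A1* had 0.049 CPM in CS16-1, from 1 count, while the other 5 *SNAI1*-KO libraries were at 0, and this library was marked as far from the others in its group. With the other 5 at 0, any count at all would have marked it, and a single count is under the floor of 3.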

How the results depend on the processing

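*BCL2L1* was the only member past the cut-offs of the study in *SNAI1*-KO, CS16 and CS19 against WT under each alternative run, and *BCL2L1*, *PMAIP1*, *BAK1* and *BBC3* passed in *SNAI1*-KO under all 17. Leaving out 1 library gave 4 to 7 members passed in *SNAI1*-KO (5 with all libraries) beside 59.9% to 67.2% of all genes, 1 to 8 in CS16 (3) beside 43.3% to 72.7%, 1 to 8 in CS19 (4) beside 40.8% to 71.2%, the highest each time without WT-2, and 1 to 3 in CS19 against CS16 (2) beside 19.2% to 28.2%. Correlations of same-numbered libraries ran from -0.39 to 0.33, and those of differently numbered libraries from -0.35 to 0.37. They gave no sign that the replicate numbers pair the libraries, but with 3 libraries a group they cannot exclude it. With the replicate number as a block, 5 members passed in *SNAI1*-KO, 2 in CS16, 2 in CS19 and 1 in CS19 against CS16, beside 60.3%, 47.3%, 49.5% and 18.1% of all genes, and 3179 genes in all in the last comparison in place of 4814. A shared fit of the 3 groups gave 5 members in CS16, and 0 members and 654 genes in CS19 against CS16, the cause of which was not tested. Where every gene with a count was tested, more genes met the cut-offs, but of a larger number tested. In *SNAI1*-KO they were 8662 of 41910 in place of 5272 of 19631, and in CS19 7513 of 40443 in place of 4990 of 18935. In CS19 against CS16 they were 352 of 38229 in place of 198 of 17538. Small fold changes turned sign. *BID* in *SNAI1*-KO came to 0.012 with upper-quartile factors, to 0.056 with every gene with a count, and to -0.20 to 0.14 over the left-out libraries, which gave -0.34 to 0.0013 in CS16 and -0.033 to 0.30 in CS19. In CS19 against CS16, *MCL1* came to 0.0014 with upper-quartile factors and to -0.063 to 0.0076 over the left-out libraries, and *BBC3* to -0.041 to 0.12. *BCL2A1* was under the floor of 3 counts in all libraries. With 3 libraries a group, 2 clones and 1 parental population, effects of *SNAI1*, of growing a clone and of identity cannot be told apart.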
